A study of Rattus norvegicus with 4 samples.

Results

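H3K4me3 domains that the peak caller returned as 1 unbroken peak in one nerve and as 2 or more peaks in the other are described here. They were found in 2 pooled peak lists of rat sciatic nerve, 1 from the distal stump 1 day after transection and 1 from contralateral nerves of limbs given a skin incision only (sham). The nerves came from adult male Sprague Dawley rats, for which the labels also give P42 under a tag named passage, and both groups were precipitated with an anti-H3K4me3 antibody after digestion of chromatin with micrococcal nuclease. Each group had 2 samples, which the authors combined before calling peaks, so every difference below is a difference between 2 lists with no replicate check and no test. The labels do not say how many animals gave tissue.

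Peaks that overlapped by 1 bp or more were merged into 39013 regions, of which 27962 held peaks of both lists. Split domains were chosen on the peak calls themselves, as regions with exactly 1 peak in one list and 2 or more in the other. Of 1731 such regions, 219 were left out because a peak measured 4000 bp or more, and a further 91 because the normalized tags, summed per list and averaged over the lists, came to under 20. The remaining 1421 domains are the subject of this account. They made up 7.40% of the 19194 regions of both lists that met the same 2 limits, and they held 6.40% of the tags in sham peaks and 6.36% of those in transected peaks. A normalized tag is a sequenced tag scaled to a library of 10000000.

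H3K4me3 is placed by the SET1 and MLL methyltransferase complexes on nucleosomes that flank the start sites of active genes, and its breadth varies between genes. The start site itself is often poor in nucleosomes, so that the mark commonly shows as peaks on either side of a dip. After transection, the Schwann cells of the distal stump lose their axons and leave the myelinating state for a repair state, while macrophages enter the nerve. Whole nerve was used, so a change within a cell type and a change in the mix of cells cannot be told apart in these data. Coordinates are printed as deposited, since no source used here names the build. No domain was assigned to a gene, and the tissue was not checked against marker genes.

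More domains were split in the transected nerve than in the sham nerve, although the excess faded with rising signal. The transected list broke 864 of the 1421 domains (60.8%, 95% exact interval 58.2 to 63.4) and the sham list 557. The interval treats domains as independent and covers counting error alone. On 19 of 21 chromosomes more domains were split in the transected list, and chromosomes 6 and 9 were the exceptions, with 29 of 60 and 28 of 65. The share of regions that were split ran from 4.97% on chromosome 20 to 9.60% on chromosome 17. The domains were scattered, with a median of 326 kb to the nearest other split domain and 50 of them within 10 kb of another.

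The excess in transected nerve was held by weak and middling domains. With 20 to under 50 mean tags, 166 of 242 domains were split in the transected list (68.6%, 95% exact interval 62.3 to 74.4). The share was 69.5% at 50 to under 100 tags, 67.7% at 100 to under 200 and 65.6% at 200 to under 400. It was 52.7% at 400 to under 800 tags, where the interval of 46.8 to 58.5 took in an even share. At 800 tags and over it was 44.9% (38.5 to 51.5), with 106 domains split in transected and 130 in sham nerve. This interval also took in an even share. The median domain split in the sham list had 379 mean tags, and the median domain split in the transected list had 188. The transected list rested on 5.70% fewer tags (21307148 against 22595649), and the caller's threshold of 8 tags in a 150 bp window came to 3.75 normalized tags there and 3.54 in sham. The sham list also held more peaks, 35856 against 33100. The parts of depth and of peak number in the imbalance were not tested.

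Wide regions of low density were the ones most often split. A span under 500 bp cannot hold 2 peaks of 150 bp and a gap of 220 bp, so none was split there by construction. The share was 2.02% of the regions of 500 to under 1000 bp, 11.8% of those of 2000 to under 2500 bp and 31.6% of those of 3500 bp or more. The median span was 2321 bp for domains split in sham and 2070.5 bp for domains split in transected nerve, against 1318 bp for the 17733 regions with a single peak in both lists. By density, taken as mean tags per kb of span, 34.1% of the regions under 25 tags per kb were split, 13.2% of those at 25 to under 50 and 2.00% of those at 400 or more. The span takes in the uncalled gap, which lowers the density of a split domain, so part of this pattern is built in. The threshold itself corresponds to 23.6 tags per kb for sham and 25.03 for transected nerve. Over their own length, the single peaks of split domains in the bin under 25 had medians of 31.4 (split in sham) and 29.8 (split in transected). At 2000 to under 2500 bp, 41 of 64 regions were split at 25 to under 50 tags per kb, 69 of 215 at 50 to under 100, and 21 of 764 at 400 or more.

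**Figure D1:**
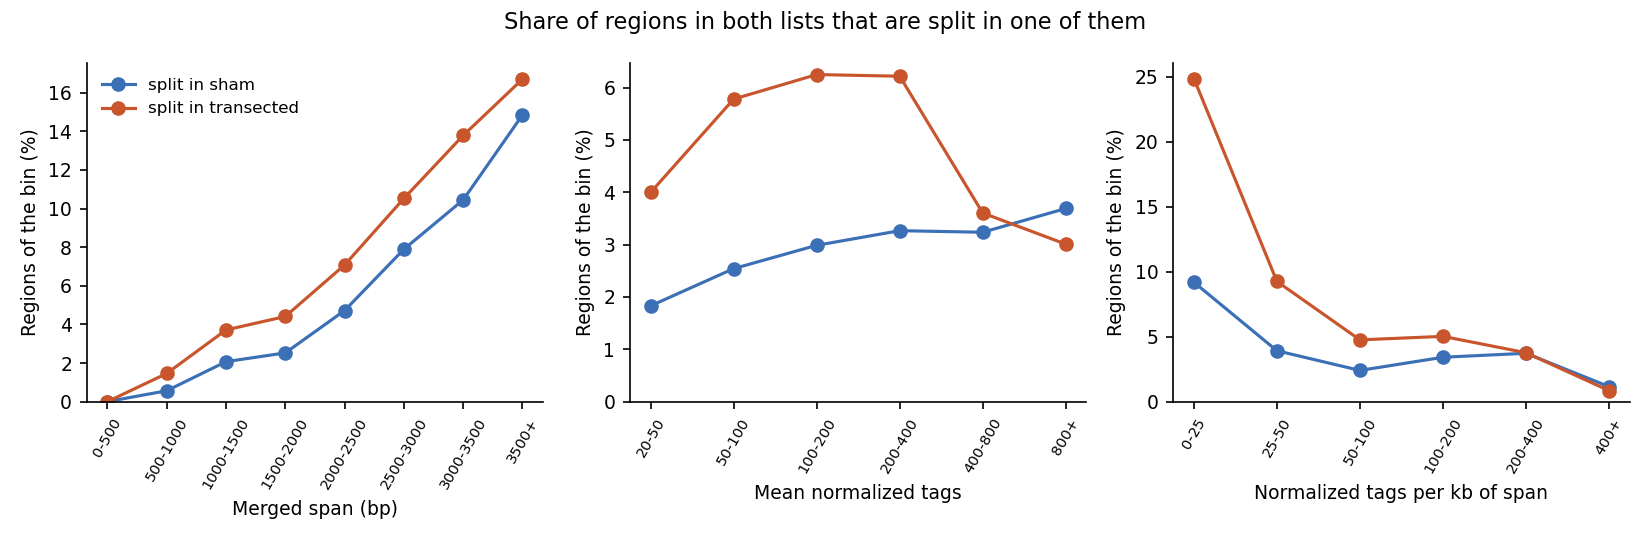
Share of the 19194 regions of both lists (vertical axes, %) that were split in the sham list (blue) or in the transected list (orange), by merged span in bp, by mean normalized tags and by normalized tags per kb of span; each point is 1 bin. Both shares rise with span, up to 14.8% and 16.7%, and by tags the sham curve is the higher only at 800 mean tags or more.

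Set beside unsplit regions of like span, split domains carried less signal per kb of merged span. At 1500 to under 2000 bp the median density was 103 tags per kb for domains split in sham, 77.0 for domains split in transected and 353 for regions whole in both. At 2500 to under 3000 bp these medians were 219, 157 and 306. In both bins the domains split in transected nerve were lowest. At 500 to under 1000 bp the 2 kinds of split domain stood the other way, at 30.6 (sham) and 33.5 (transected), against 67.4 for regions whole in both. The merged span takes in the uncalled gap, which lowers the density of a split domain. Over their own length, single peaks of domains split in sham had medians of 40.4, 120 and 226 in these bins, from narrow to wide. Those of domains split in transected had 42.2, 87.5 and 180. The clonal fold, with which the caller flags tags piled on few positions, had a median of 0.58 in the single peaks of domains split in sham and 0.55 in those of domains split in transected, against 0.72 (sham list) and 0.70 (transected list) in regions whole in both. The single peaks thus had the lower clonal fold, in a comparison not matched for span or density. In the split list, the highest clonal fold among the pieces had a median of 0.72 for domains split in sham and 0.61 for domains split in transected.

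Gaps were short and began at the smallest size the caller can leave. Windows of 150 bp whose positions differed by less than 370 bp were stitched, and the smallest gap between neighbouring peaks was 220 bp in both lists, the difference of these settings. The largest gap of a domain had a median of 274 bp (quartiles 240 and 350) when the sham list was split and 295 bp (quartiles 247 and 394) when the transected list was. It was under 300 bp in 344 of 557 (61.8%) and 447 of 864 domains (51.7%), and 500 bp or more in 41 of 557 and 95 of 864. The median gap was thus 21 bp longer in transected nerve, but not in every class of domain. At 20 to under 50 mean tags it was 307 bp when split in sham and 284 bp when split in transected, and with a weakest piece of 50 tags or more 257 and 252.5 bp. By the rule, every gap lies inside the single peak of the other list, which joins the pieces.

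The gap fell along the whole length of the single peak, with no side favoured. Its midpoint lay at a median of 49.7% of the way along the single peak, in the direction of rising coordinates, for domains split in sham and at 51.1% for domains split in transected nerve. Measured from the nearer end, where 50% is the centre, the medians were 28.3% and 29.4%. The central stretch from 40 to 60% of the single peak held 127 of 557 gaps (22.8%) and 206 of 864 gaps (23.8%). The outer 20% at both ends together held 167 and 247 gaps. A gap cannot touch an end, since a piece beyond it must still overlap the single peak. Pieces measured at least 150 bp but could reach past the single peak, so less than 150 bp of it could remain beyond a gap.

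**Figure D2:**
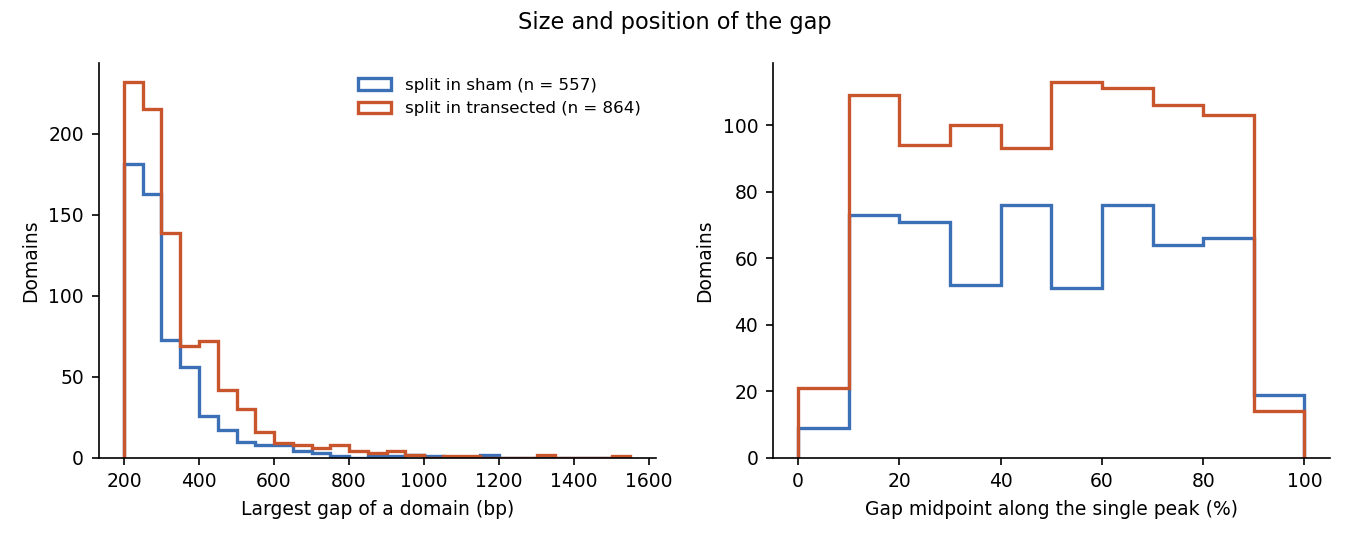
Left, number of domains by the size of their largest gap in bp (50 bp bins); right, number of domains by the position of the gap midpoint along the single peak in % (10% bins), for the 557 domains split in sham (blue) and the 864 split in transected nerve (orange). Gaps pile up just above 220 bp, and positions are spread from 10% to 90% with few beyond.

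Position followed signal. In domains of 20 to under 50 mean tags the gap lay near the centre, at a median of 41.6% from the nearer end when split in sham and 39.4% when split in transected. In domains of 800 tags or more it lay near an edge, at 18.5% and 16.3%. Position is a percent of the single peak, so the smallest gap and piece push it towards the centre of a narrow peak. By merged span the medians ran from 41.7% and 41.6% at 500 to under 1000 bp to 18.6% and 16.5% at 3500 bp or more. The parts of signal and width in the position were not told apart. In the weak domains the strongest piece held a median of 68.4% and 68.2% of the tags of the split list. The weakest piece there held a median of 6.64 and 6.1 tags. In the strong domains the strongest piece held 98.7% and 98.9%, and the weakest a median of 11.5 and 10.3 tags. Strong domains were thus mostly a nearly whole peak with a faint fragment set off at an edge, and their single peaks were also the wider, with medians of 2968 and 3073 bp against 995 and 1019 bp in the weak ones. The caller's tag threshold limits how faint a piece can be. A piece of a few tags is also a larger share of a weak domain than of a strong one. Part of the contrast in the share of the strongest piece is therefore built in.

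The 5 strongest domains split in the sham list showed this form. On chromosome 9 at 92166206 to 92169508, the transected list held 1 peak of 3302 bp with 2592.1 normalized tags. The sham list held a piece of 150 bp with 9.74 tags, a gap of 247 bp and a piece of 2852 bp with 2383.6 tags. On chromosome 13 at 52527580 to 52531260, sham pieces of 2241.6 and 4.43 tags stood against a single transected peak of 2142.5 tags. The gap measured 226 bp. The domain on chromosome 10 at 76028675 to 76032756 summed to 2108.8 sham and 2116.2 transected tags, and that on chromosome 17 at 8868363 to 8872022 had 1840.6 and 2001.7. In them the smaller sham piece held 6.20 and 3.10 tags. The last, on chromosome 10 at 61296976 to 61299995, held 1704.3 sham tags, 16.8 of them in the smaller piece, and 1963.7 transected tags. In all 5 the gap midpoint lay within 14.3% of an end.

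Among the 5 strongest domains split in the transected list, 3 had the same form and 2 had a gap farther inside. The strongest lay on chromosome 1 at 8605818 to 8609935, with 2335.8 tags in 1 sham peak and 2146.7 in 2 transected peaks of 12.7 and 2134.0 tags, parted by 306 bp. On chromosome 8 at 115743601 to 115747123, 2219.5 sham tags stood against transected pieces of 2033.1 and 8.92 tags. On chromosome 1 at 76203756 to 76207563, 1659.2 sham tags stood against pieces of 6.10 and 1795.2 tags. On chromosome 1 at 181700098 to 181703495 the break was even: a sham peak of 3023 bp with 1841.5 tags faced transected pieces of 1203.8 and 819.9 tags, with a gap of 265 bp at 59.6% of the sham peak. On chromosome 6 at 69961885 to 69965414 the gap was longer, 451 bp at 70.4% of the sham peak, beyond which the transected list kept 476 bp with 17.4 tags. That domain held 1878.2 sham and 1984.8 transected tags, over 3529 and 2664 bp of called length, so the split list held the more tags over the shorter length.

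**Figure D3:**
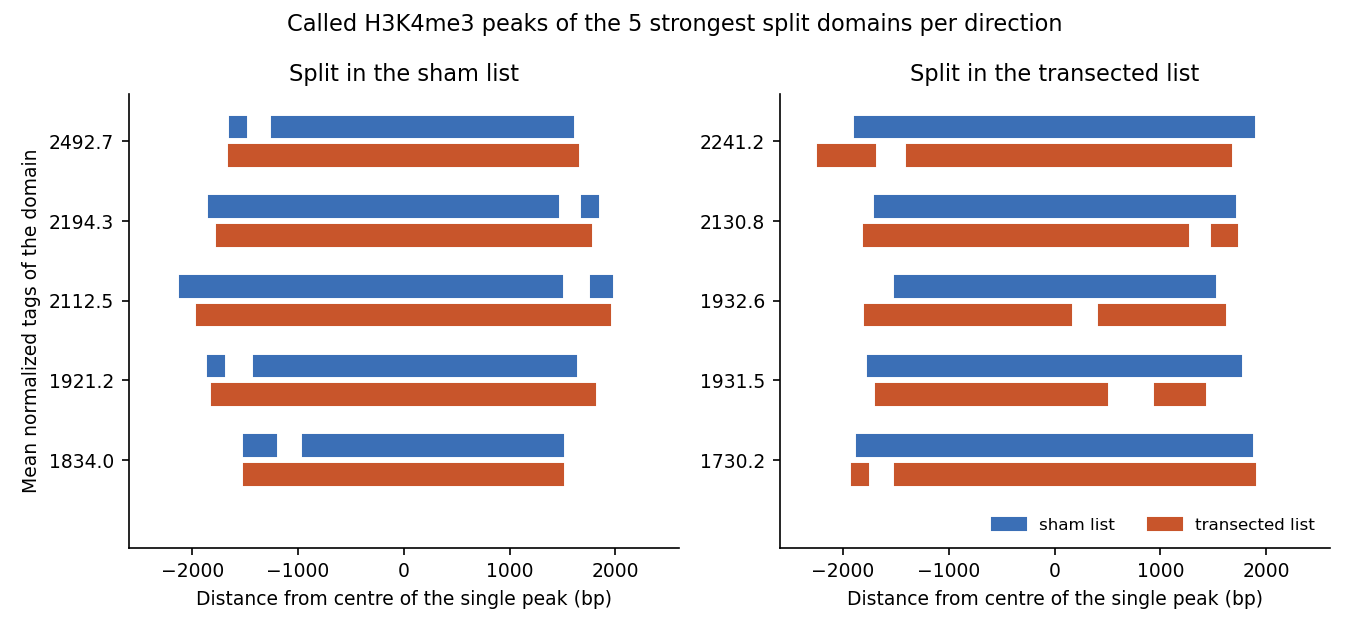
Called peaks of the 5 domains with most mean normalized tags that were split in sham (left) and in transected nerve (right); bars span each peak in bp from the centre of the single peak, blue for the sham list and orange for the transected list, and the vertical axis gives mean tags. Most breaks set off a small piece at an edge, and the domain of 1932.6 mean tags on the right is broken near its middle.

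The strength of the weakest piece turned the direction of the split. Where it held under 5 tags, 165 of 270 domains were split in the transected list (61.1%), and at 5 to under 10 tags 310 of 427 (72.6%). The share was 64.4% at 10 to under 20 tags and 54.7% at 20 to under 50, where the interval of 47.6 to 61.7 took in an even share. At 50 tags or more, where both sides of the gap are strong, 138 of 226 domains were split in the sham list (61.1%, 95% exact interval 54.4 to 67.5) and 88 in the transected list. The bins were set after the values were seen. These 226 domains had a median of 586 mean tags, a gap of 256.5 bp and a gap position of 36.4% from the nearer end. The excess of splits in transected nerve therefore lay mainly in domains whose weakest piece held under 20 tags. A piece of a single 150 bp window was present in 286 of 864 domains split in transected nerve (33.1%), against 127 of 557 in sham (22.8%).

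The domains with the strongest weaker piece, named after their values were seen, had gaps at 38.4 to 69.4% of the single peak. For sham, the first lay on chromosome 9 at 15313174 to 15316662, where pieces of 824.9 and 790.9 tags stood 239 bp apart and the transected list held 1 peak of 3488 bp with 1684.4 tags. The second lay on chromosome 1 at 218131522 to 218134199, with sham pieces of 723.1 and 663.8 tags and a transected peak of 1507.5 tags. The third lay on chromosome 14 at 19198578 to 19201643, with 766.5 and 602.8 tags against 1433.3. In each the sum of the sham pieces was below the single transected peak (1615.8, 1386.9 and 1369.3 tags). For transected nerve the first was the chromosome 1 domain at 181700098 given above. The next were chromosome 14 at 84098567 to 84101719, with pieces of 722.3 and 603.6 tags against 1260.0 in sham, and chromosome 1 at 90536625 to 90540012, with 643.4 and 482.5 against 845.7. In all 3 the transected pieces together held more tags than the single sham peak, so a break did not always go with a lower tag sum. Every domain of this paragraph thus held more tags in the transected list, whichever list was split.

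The 5 longest gaps of each list lay in domains of 43.1 to 1153 mean tags, against a median of 239 over all 1421 domains. The longest, 1515 bp, was in the transected list on chromosome 8 at 60100596 to 60104714, between pieces of 285.8 and 13.6 tags, where sham held 1 peak of 3977 bp with 426.2 tags. It was followed by 1336 bp on chromosome 5 at 137367874 to 137370074 and 1309 bp on chromosome 10 at 11923436 to 11925495. In these, single sham peaks of 73.5 and 98.2 tags stood against transected pieces that summed to 12.7 and 16.0. On chromosome 7 at 12443581 to 12445807 the gap was 1101 bp (92.5 tags in sham, 22.0 in transected), and on chromosome 4 at 182105991 to 182108337 it was 1094 bp (167.7 and 61.0). In the 3 domains on chromosomes 5, 10 and 7 the transected list held 2 small pieces, at or under 617 bp each, against a weak sham peak of 1900 to 2125 bp. In each of them 1 piece reached past an end of the sham peak.

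In the sham list the longest gap was 1194 bp, on chromosome 15 at 44848438 to 44852386, between pieces of 182.3 and 4.43 tags, where the transected list held 1 peak of 3948 bp with 457.1 tags. The next lay on chromosome 9 at 13572430 to 13575097 (1175 bp, 38.98 tags in sham and 128.6 in transected) and chromosome 20 at 5518806 to 5522924 (1015 bp, 1131.2 and 1174.7). Those on chromosome 16 at 22778983 to 22782594 and chromosome 14 at 43808991 to 43812370 measured 983 and 973 bp. The chromosome 20 domain had the most signal among the 10: both lists held strong signal, and the gap of 1015 bp set off a piece of 12.4 tags.

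Breaks into more than 2 pieces were few. In sham 538 of 557 domains had 2 pieces, 18 had 3 and 1 had 4. In transected nerve 812 of 864 had 2, 49 had 3 and 3 had 4. The sham domain with 4 pieces lay on chromosome 4 at 233432684 to 233435269, with pieces of 6.20, 9.29, 8.85 and 15.5 tags and a single transected peak of 2575 bp with 111.2 tags. The 3 in transected nerve lay on chromosome 2 at 204732587 to 204736304 (309.8 tags in 1 sham peak, 176 in the 4 pieces), chromosome 19 at 36862322 to 36865988 (251.4 and 179) and chromosome 4 at 220639235 to 220642521 (220.4 and 94.3). All 4 were wider than 2500 bp and had between 43.2 and 83.6 tags per kb in the list that left them whole. The strongest sham domains with 3 pieces lay on chromosome 5 at 21306517 to 21310320, where pieces of 5.75 and 3.98 tags trailed one of 1081.6, and on chromosome 7 at 75567483 to 75571444, where the first 2 pieces held 7.08 and 531.5 tags.

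The outer ends of the pieces often differed from those of the single peak. Both ends were within 100 bp in only 244 of 557 domains split in sham (43.8%) and 384 of 864 split in transected nerve (44.4%). The pieces lay wholly inside the single peak in 107 (19.2%) and 349 domains (40.4%), and in the others they reached past it at an end or both. From the first to the last piece, the broken sham domains spanned a median of 2224 bp and the single transected peaks 2220 bp. The broken transected domains spanned 1874.5 bp and the single sham peaks 2017 bp. Domains split in transected nerve were therefore also called shorter from end to end, which was not so for those split in sham.

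Tag sums leaned towards the list that left the domain whole, and density did not. This comparison uses the peak calls that chose the domains, and a broken domain has less called length, so it is given as a description. Log2 ratios are transected over sham, less their median over all 27962 regions of both lists. For tag sums the median ratio was 0.20 in domains split in sham, with the ratio above 0 in 448 of 557, and -0.21 in domains split in transected nerve, with the ratio below 0 in 606 of 864. The median over all regions of both lists is 0 by construction, and over regions whole in both it was 0.02. Per kb of called length, the medians were -0.10 and 0.08, of the opposite sign to those of the tag sums. By these medians the pieces were slightly denser than the single peak, whose called length includes the gap. The single peak was the denser in 195 of 557 and 336 of 864 domains, and in domains split in transected nerve the median was -0.06 at 50 to under 100 mean tags and -0.05 at 100 to under 200. The single peak held more normalized tags than the pieces together in 399 of 557 domains (71.6%) and in 675 of 864 (78.1%), by a median over all domains of 23.8 and 24.7 tags.

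Few domains were far apart in signal. A centred tag sum at least 2-fold lower in transected nerve was seen in 88 of the 864 domains split there, or 10.2%, against 5.95% of all regions of both lists and 2.53% of those under the same limits of signal and size. At least 2-fold higher sums were seen in 35 of the 557 domains split in sham, or 6.28%, against 3.17% and 0.917%. The other way, 1 domain split in sham was 2-fold lower (0.18%) and 1 split in transected nerve was 2-fold higher (0.116%). Per kb, 7 of the 864 domains split in transected nerve were 2-fold higher (0.81%), against 0.887% of all regions of both lists and 0.339% of those under the same limits. There were 2 that were 2-fold lower (0.231%), against 0.855% and 0.479%. Of the 557 split in sham, 0 (0%) were 2-fold higher per kb and 1 (0.18%) was 2-fold lower. These are rules of size, not tests, and since the choice of the domains used the same calls, nothing is read from the excess in tag sums. The split domains at 800 tags or more lay close together in sum, with medians of 0.14 (split in sham) and 0.08 (split in transected), both on the transected side. No value was taken for unsplit regions of this signal, so that side is not read as a trait of split domains.

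**Figure D4:**
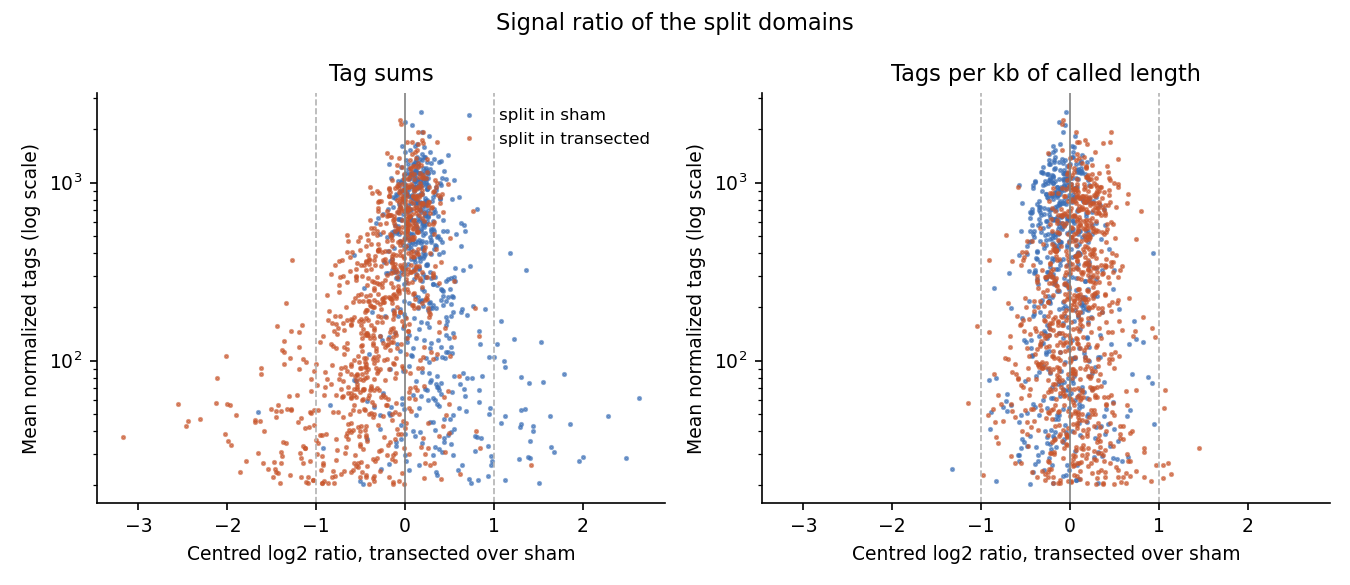
Centred log2 ratio of transected over sham (horizontal) against mean normalized tags on a log scale (vertical) for the 1421 domains, as tag sums (left) and as tags per kb of called length (right), blue for domains split in sham and orange for those split in transected nerve; dashed lines mark 2-fold. The colours part on the left, mainly below 400 tags, and overlap on the right.

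The largest ratios belonged to weak domains of which only small pieces were called. The highest was on chromosome 9 at 81194372 to 81197269, where sham held 3 pieces with 17.7 tags over 567 bp and transected nerve 1 peak with 104.7 tags over 2897 bp (centred log2 ratio 2.63, 95% counting interval 2.14 to 3.16). Per kb of called length it was 0.19. The next 4 were on chromosome 3 at 167597768 (8.86 and 47.4 tags), chromosome 1 at 206583718 (17.3 and 80.3), chromosome 1 at 210520495 (11.9 and 45.5) and chromosome 10 at 86655215 (11.5 and 42.7). The lowest was on chromosome 1 at 192832231 to 192833915, with 66.8 tags in 1 sham peak of 1623 bp and 7.04 in 2 transected windows of 150 bp (log2 -3.18, interval -4.05 to -2.41, and -0.83 as tags per kb). The domains on chromosomes 10 and 5 with gaps of 1309 and 1336 bp came next, at -2.55 and -2.47. After them came chromosome 6 at 146169779 (77.9 tags in sham, 13.6 in transected) and chromosome 12 at 52069381 (78.3 and 15.0). As tags per kb each of these 10 was under 2-fold apart.

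Gaps were also followed in the other direction, from every short gap of a list to what the other list called there. This count was added after the values of the domains were seen. It is not independent of them, since a bridged gap parts peaks of one list under 1 peak of the other, as in a split domain. It covers gaps under 1600 bp between neighbouring peaks, neither of 4000 bp or more, that together held at least 20 tags. Merging hides a gap that both lists share, since it then parts 2 regions. Of 4657 such gaps in the transected list, 1002 (21.5%, 95% exact interval 20.3 to 22.7) were bridged by 1 sham peak, 2561 were covered in part and 1094 (23.5%) were empty in the sham list too. Of 4707 gaps in the sham list, 659 (14.0%, 13.0 to 15.0) were bridged by 1 transected peak, 2364 were covered in part and 1684 (35.8%) were empty in the transected list. The numbers of gaps were close, and a gap in transected nerve was more often bridged. The sham list held more peaks (35856 against 33100), and the part of this in the bridging was not tested. Gaps of 220 to under 250 bp were bridged in 47.6% of cases in the transected list and 38.2% in the sham list. At 500 to under 700 bp this was 11.5% and 4.31%, and at 1000 to under 1600 bp 4 gaps of each list were bridged.

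**Figure D5:**
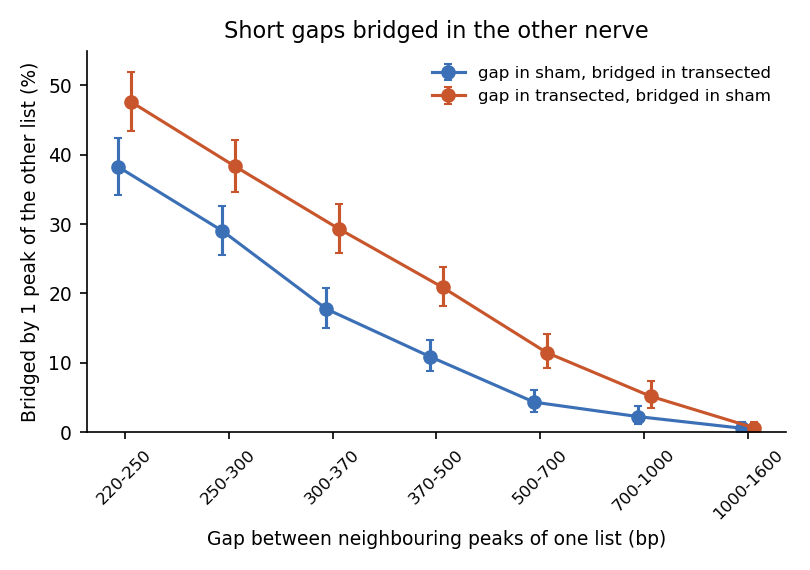
Share of gaps between neighbouring peaks of one list that were bridged by a single peak of the other (vertical, %), by gap size in bp (horizontal), blue for gaps of the sham list and orange for gaps of the transected list; bars are 95% exact intervals of counting. Both shares fall with gap size, and the transected list lies above the sham list in every bin under 1000 bp.

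Regions broken in both lists at once were rare under the same limits. There were 40, which is 6.70% of the 597 regions with 2 or more sham peaks and 4.42% of the 904 with 2 or more transected peaks. In these the gaps of the lists lie at different places, since a gap at the same place in both would have parted the region.

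At the limits of the rule, the domains nearest above 20 mean tags had 20.2, 20.2 and 20.2 tags, on chromosome 1 at 248199337, chromosome 9 at 97228498 and chromosome 5 at 159023899. Those nearest below, on chromosome 1 at 18985653, chromosome 9 at 73807113 and chromosome 3 at 59494739, had 19.9, 19.9 and 19.98 tags. The widest single peaks kept measured 3978, 3984 and 3998 bp, and the narrowest left out 4001, 4004 and 4008 bp.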

How the data were processed

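Sequenced H3K4me3 tags of 4 samples, 2 per group, reached this work as 2 peak lists, 1 per group. Per the file headers, the authors called each list with HOMER findPeaks on a combined tag directory, with 150 bp windows stitched at a minimum distance of 370 bp, a false discovery rate of 0.001, a threshold of 8 tags and no input library named in the command. Per the submitters' processing notes, CASAVA 1.8.2 and Bowtie were also used, and no source used here names the build. The signal of a peak is its deposited normalized tag count, scaled to a library of 10000000 tags per the file headers. The findPeaks score, the clonal fold ratio and the region length were used as deposited.

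Peaks were merged in pandas 2.3.3 under Python 3.11.15, intervals came from scipy 1.17.1, and the merge was checked against bedtools 2.31.1 and tested on simulated lists. The domains and lists were chosen with earlier results of these data known. Domains named in the text are, per direction, the 5 with most tags, the 5 with the widest gap and the 3 with most pieces, the 5 highest and 5 lowest ratios, and 3 on each side of both limits; others are said to be chosen after their values were seen. Intervals are exact (Clopper-Pearson, 95%). Those of ratios use tags recovered by depth, whole within 0.12 of a tag for 100% of peaks. They cover counting error only, as no molecular identifiers mark separate molecules.

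The gene positions at hand (GRCr8) end at 184404305 on chromosome 4, and the lists reach 248342340 there. They were therefore not joined, and no sequence is shown.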

Additional observations from a re-analysis of the deposited data

How the results depend on the processing

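No paired analysis was possible because each group is 1 pooled list, and for the same reason no replicate could be left out. Against 1421 domains, the rule gave 703 when run on the upper 75% of each list by score. Of the 1421, 724 and 226 had a weakest piece of at least 10 and at least 50 tags, limits chosen after the data were seen. The other 7 settings gave 1053 to 1640. The share split in transected nerve, 60.8%, was 57.5% without peaks of 1 window, 53.7% with a weakest piece of at least 10 tags and 38.9% with at least 50, where the direction turned. The median gap of 286 bp was 277 bp with the upper 75% by score, and 272 and 256.5 bp with the 2 limits on the weakest piece.

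The median gap position, 29.1% from the nearer end, was 30.02% and 26.6% at signal floors of 10 and 40 tags, 30.7% with peaks under 3000 bp and 28.0% with no limit on size. It was 30.9% with 150 bp of overlap, 31.0% without peaks of 1 window, 30.1% in the upper 75% by score, 30.3% without peaks under 5 tags, and 33.4% and 36.4% with the limits on the weakest piece. The median log2 ratio of tag sums in domains split in sham, 0.20, was 0.13 uncentred and 0.15 centred on stronger regions. In domains split in transected nerve it was -0.28 uncentred. As density over the merged span, the ratios reversed to 0.20 and -0.21, since a common length makes them equal to those of tag sums. The uncentred ratio of tags per kb in domains split in transected nerve was 0.10. Faint pieces lie near the threshold of 8 tags, and the part of depth in their calling was not tested.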
